A study of Mus musculus with 29 samples.

Results

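The colony stimulating factors are secreted proteins that drive the growth, survival and activation of macrophages, granulocytes and dendritic cells, and they act through receptors carried mostly by those cells. The 7 members of this family described here are the ligand genes Csf1, Csf2 and Csf3 and the receptor genes Csf1r, Csf2ra, Csf2rb and Csf3r. They were found by their symbols in a table of 24421 genes counted by RNA-seq, and each symbol had 1 row. The tissue came from 29 young female C57BL/6J mice that had all received YTN16 mouse gastric cancer cells into the abdominal cavity, and RNA was taken from stripped peritoneum with or without tumor nodules. At 3wk (day 21), 5 untreated mice had been given PBS and 5 dual ICI mice the antibodies anti-PD1 and anti-CTLA4 together, in repeated injections into the abdominal cavity. At 5wk (day 35), after further injections, the groups were untreated mice (n = 5), mice given anti-PD1 alone (n = 5) or anti-CTLA4 alone (n = 4), and mice given both, of which 2 were dual ICI-uncured and 3 dual ICI-cured. The labels give treatment and day only. The outcome under dual ICI was set by matching the labels' replicate numbers (1 and 5 uncured, 2, 3 and 4 cured) to the numbered mice of the study, so each statement on outcome rests on that match.

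M-CSF, the product of Csf1, binds the receptor tyrosine kinase made from Csf1r and keeps monocytes and macrophages alive. GM-CSF, from Csf2, binds a specific alpha chain (Csf2ra) that joins a common beta chain (Csf2rb), which also serves the receptors of IL-3 and IL-5. G-CSF, from Csf3, binds a homodimeric receptor (Csf3r) and is the main driver of neutrophil production. In peritoneum these receptors mark resident and recruited myeloid cells, and tumors are known to draw such cells in.

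Levels are in CPM, the counts of a gene relative to the size of its library, with sizes scaled by the TMM method, which corrects for a few genes taking a large share of the reads. A gene was called changed at an adjusted p under 0.05 in edgeR's quasi-likelihood test over all genes tested. Library totals lay between 25989217 and 31219650 counts. The share of counts from 20 skeletal muscle genes ran from 4.33% to 25.7%, and it was 24.0% to 25.7% in the cured mice, 23.7% in anti-PD1 replicate 5 and 22.5% in untreated 5wk replicate 2. Those 5 libraries had the 5 highest muscle shares of all 29. The labels call every sample tumor tissue, yet the summed level of 16 gastric epithelium genes was 24.4 to 115 CPM in the cured mice and 74.0 CPM in anti-PD1 replicate 5, against 1212 to 4094 CPM in untreated 5wk mice and 3662 to 4538 CPM in uncured mice. Genes of mesothelium, the lining of the peritoneum, were present in every group, at 37.8 to 568 CPM in sum. In bulk tissue, fewer cells of a type and less RNA per cell cannot be told apart.

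All 7 members were matched to GENCODE M21 on GRCm38. Csf3r lies at chr4:126024550-126044440 on the plus strand and Csf2ra at chr19:61223957-61228429 on the minus strand. Csf2rb lies at chr15:78325752-78353847 on the plus strand, close to its near-copy Csf2rb2 at chr15:78282507-78305721 on the minus strand. Csf1 lies at chr3:107741048-107760469 on the minus strand, and Csf1r on chromosome 18 at 61100598 to 61132149 on the plus strand. Csf2 (chr11:54247271-54249667, minus strand) and Csf3 (chr11:98701263-98703629, plus strand) share chromosome 11. Csf1r overlaps Hmgxb3 on the other strand and Mir6983, Csf2 overlaps Gm12223 on the other strand, and Csf2rb overlaps Mir7676-2. How strand was handled in counting is not given in the sources used here, so reads of these overlaps cannot be told apart.

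Promoter sequences from RefSeq (GRCm38.p6), of 300 bases with 250 before and 50 after the start, were held for 4 of 7 members. The sequences of Csf3r (chr4:126024409-126024708, plus strand) and Csf2ra (chr19:61228369-61228668, minus strand) are shown because one of these receptors differed most between outcomes and the other did not pass the test against untreated mice. Capitals mark GAGGAAG on either strand, a purine core of the kind bound by PU.1, the myeloid transcription factor made from Spi1. This motif was chosen after the sequences had been seen.

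Csf3r: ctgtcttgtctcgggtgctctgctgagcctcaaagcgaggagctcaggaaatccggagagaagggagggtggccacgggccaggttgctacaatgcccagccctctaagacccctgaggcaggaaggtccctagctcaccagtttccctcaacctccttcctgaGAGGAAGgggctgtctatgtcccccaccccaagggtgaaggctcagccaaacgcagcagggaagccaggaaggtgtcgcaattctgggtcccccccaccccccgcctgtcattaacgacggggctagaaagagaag
Csf2ra: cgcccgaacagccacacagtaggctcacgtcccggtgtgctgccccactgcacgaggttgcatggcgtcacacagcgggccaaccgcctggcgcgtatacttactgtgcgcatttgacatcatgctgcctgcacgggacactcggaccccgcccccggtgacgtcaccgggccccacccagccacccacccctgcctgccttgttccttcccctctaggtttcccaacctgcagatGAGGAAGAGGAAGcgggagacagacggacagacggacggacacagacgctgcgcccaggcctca

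The Csf3r promoter held 1 match and the Csf2ra promoter 2 that overlap by a single base, while those of Csf1 and Csf2 held 0. Of 32851 mouse promoters of the same length, 13.63% held the motif, so these matches are a description only.

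The common beta chain gene has a near-copy, Csf2rb2, whose product serves the mouse IL-3 receptor. The longest stretch that their transcripts share is 242 bases, which matters because reads from it could have come from either gene. It is coding sequence in exon 15 of 15 of Csf2rb (transcript Csf2rb-206) at chr15:78348577-78348818 on the plus strand, shown in lower case throughout as no base differs.

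Shared run: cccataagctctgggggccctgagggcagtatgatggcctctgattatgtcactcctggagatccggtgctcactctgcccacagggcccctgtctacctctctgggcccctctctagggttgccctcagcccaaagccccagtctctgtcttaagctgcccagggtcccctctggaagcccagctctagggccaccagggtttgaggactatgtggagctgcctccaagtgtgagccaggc

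Of the 4900 bases of that transcript, 3.47% of the windows of 150 bases and 18.39% of the windows of 50 bases occur unchanged in Csf2rb2. The counts of these genes are therefore uncertain where reads fell in shared stretches.

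**Figure D1:**
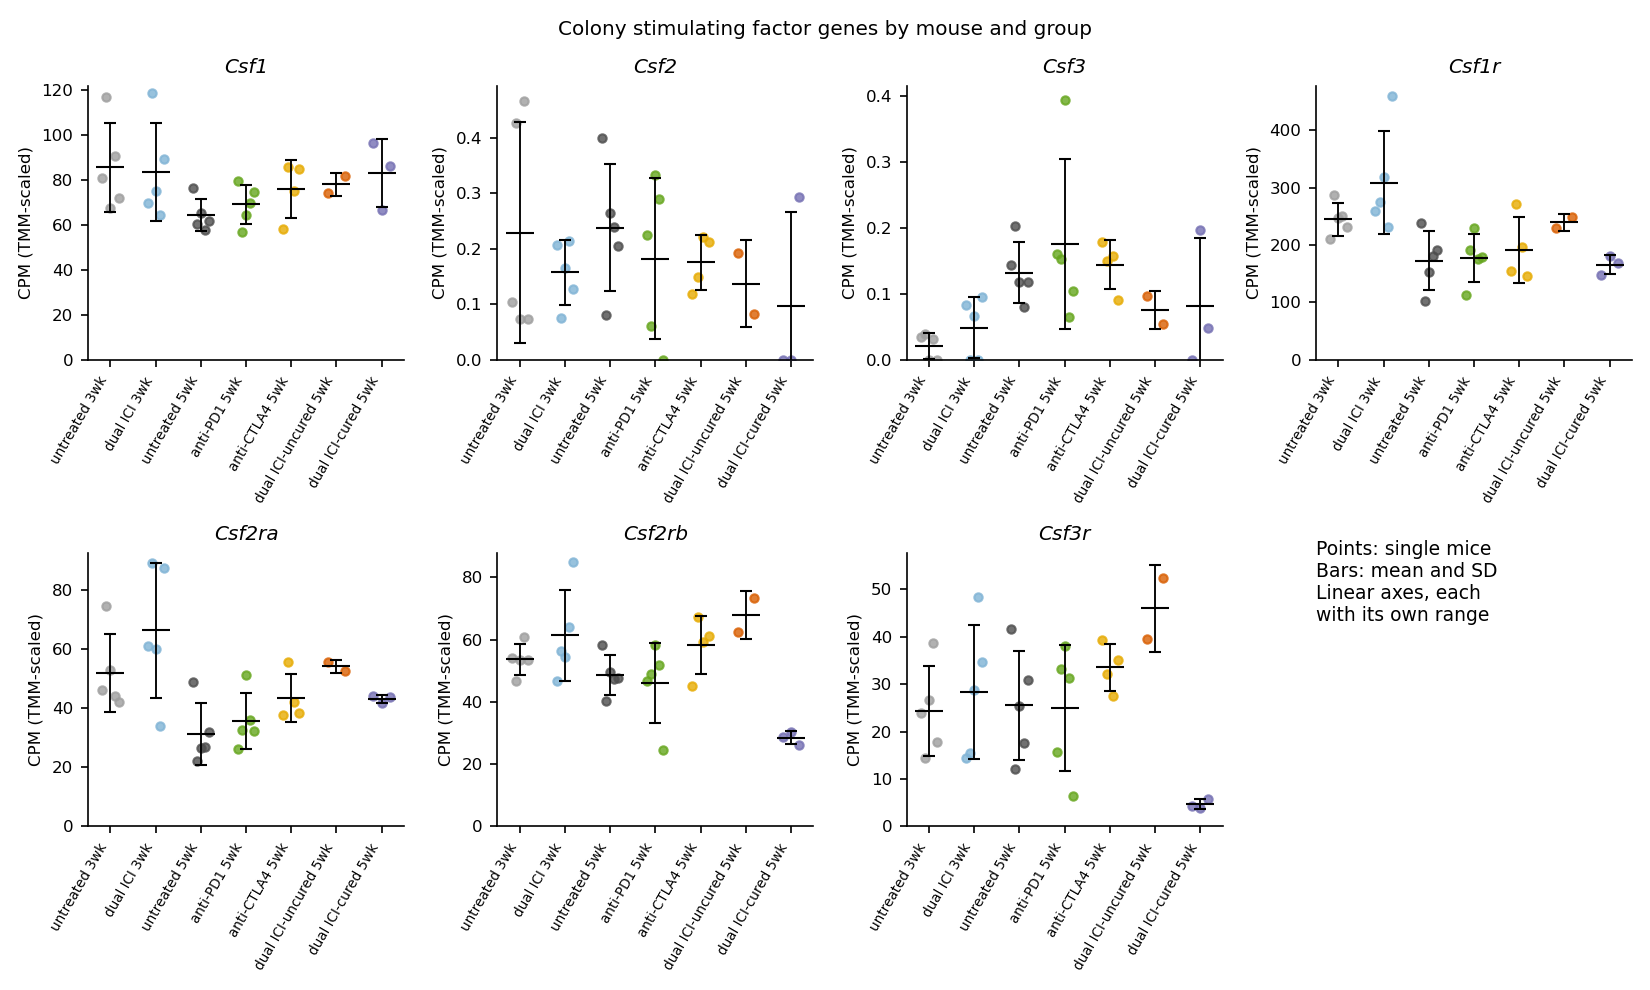
Level of each colony stimulating factor gene and receptor gene in each mouse, in CPM on TMM-scaled library sizes, by group. Points are mice and bars the mean and SD. Csf3r lies between 3.89 and 5.80 CPM in the 3 cured mice, and no mouse exceeds 0.466 CPM of Csf2 or 0.394 CPM of Csf3.

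Among the ligands, Csf1 was the only gene with a sizeable level. It encodes M-CSF, and its mean was 85.6 ± 19.7 CPM in untreated and 83.4 ± 21.8 CPM in dual ICI mice at 3wk (SD, n = 5 each). At 5wk it was 64.3 ± 7.22 CPM in untreated, 69.1 ± 8.84 CPM in anti-PD1 (SD, n = 5 each) and 76.0 ± 12.9 CPM in anti-CTLA4 mice (SD, n = 4). It was 78.0 ± 5.17 CPM in uncured (SD, n = 2) and 83.1 ± 15.1 CPM in cured mice (SD, n = 3). The ranges of every neighbouring pair of groups in this order of means overlapped.

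Csf2, which encodes GM-CSF, was near the limit of detection. Its counts were 3, 11, 2, 15 and 2 in untreated and 5, 2, 5, 8 and 4 in dual ICI mice at 3wk, and 14, 2, 9, 6 and 7 in untreated mice at 5wk. The anti-PD1 mice held 7, 2, 11, 9 and 0, the anti-CTLA4 mice 4, 4, 7 and 7, the uncured mice 6 and 3 and the cured mice 0, 0 and 6. All groups overlapped, and 10 of 29 libraries held 3 counts or fewer, a level that a count of 0 still allows. Those 3 counts equal 0.0802 to 0.156 CPM depending on the library, counting error only. On summed counts, cured over untreated 5wk mice gave a ratio of 0.401 for equal depth. Its 95% exact counting interval, 0.139 to 0.957, leaves out the spread between mice. In every other comparison of a pair of groups that interval held 1.

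Csf3, the G-CSF gene, was lower still. Its counts were 1, 1, 0, 1 and 0 in untreated and 2, 0, 2, 0 and 3 in dual ICI mice at 3wk. At 5wk they were 5, 5, 4, 2 and 4 in untreated, 5, 5, 13, 2 and 2 in anti-PD1 and 6, 4, 5 and 3 in anti-CTLA4 mice. The uncured mice held 3 and 2 and the cured mice 0, 4 and 1. Untreated mice at 5wk all lay above untreated mice at 3wk, as did 6% of all genes tested. The summed counts were 20 against 3, a ratio of 6.15 for equal depth with a 95% exact counting interval of 1.82 to 32.3. That interval covers counting error only and leaves out the spread between mice. The libraries of each day also carry identifiers in separate ranges, which cannot be told apart from day. With no filter on low counts the edgeR adjusted p was 0.0532. Every library at 3wk held 3 counts of Csf3 or fewer. Dual ICI over untreated mice gave a ratio of 2.19 there, with a 95% exact counting interval of 0.501 to 13.2, again counting error only. A modest difference between treatments at 3wk was therefore not detectable at this depth.

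Neither Csf2 nor Csf3 had enough counts to pass the filter on low values in any comparison of a pair of groups, so 5 of the 7 members were tested there. In the test of dual ICI by day, over 4 groups, Csf2 passed and was not called (log2 difference -0.30, SE 0.95, edgeR adjusted p = 0.943).

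Among the receptors, Csf1r had the highest level. Scaled to the length of its exons, the mean level over all mice was 37.4 CPM per kb for Csf1r, 16.1 for Csf2ra, 7.21 for Csf3r and 7.12 for Csf2rb. On the same scale of CPM per kb, Csf1 was at 14.5, Csf2 at 0.228 and Csf3 at 0.0697. Il34, the other ligand of the Csf1r protein, was at 5.97 CPM per kb.

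Csf3r, the G-CSF receptor of neutrophils, showed the widest range in fold terms among the 5 tested members, from 3.89 to 52.5 CPM. It was 41.7, 12.2, 25.3, 17.5 and 30.9 CPM in untreated mice at 5wk, 39.4 and 52.5 CPM in uncured mice and 4.23, 3.89 and 5.80 CPM in cured mice. All cured mice lay below all mice of the other groups. The next lowest was anti-PD1 replicate 5 at 6.34 CPM, while the other 4 anti-PD1 mice were at 15.7, 33.1, 38.0 and 31.3 CPM. The anti-CTLA4 mice were at 39.4, 32.1, 27.5 and 35.1 CPM. At 3wk the levels were 23.9, 14.4, 26.7, 38.8 and 17.8 CPM in untreated and 14.4, 15.4, 28.8, 48.4 and 34.6 CPM in dual ICI mice, which overlapped. In the order of group means, the uncured mice (46.0 ± 9.23 CPM, SD, n = 2) came first, and the uncured mouse at 39.4 CPM lay beside the highest anti-CTLA4 mouse at the same rounded value.

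Csf2rb, the common beta chain, had the same lowest group. It was 58.3, 40.2, 49.6, 47.2 and 47.7 CPM in untreated mice at 5wk, 62.4 and 73.4 CPM in uncured mice and 28.6, 30.4 and 26.2 CPM in cured mice. The anti-PD1 mice were at 46.7, 49.0, 58.2, 51.8 and 24.6 CPM, and the anti-CTLA4 mice at 45.1, 67.3, 59.4 and 61.2 CPM. Anti-PD1 replicate 5, at 24.6 CPM, was again apart from its group. It lay below every cured mouse and was the lowest of all 29 libraries. At 3wk Csf2rb was 54.0, 46.8, 53.4, 60.8 and 53.4 CPM in untreated and 46.8, 56.2, 54.5, 64.2 and 85.0 CPM in dual ICI mice.

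Csf1r, the M-CSF receptor of macrophages, also had its lowest mean in the cured mice (166 ± 17.1 CPM, SD, n = 3), but inside the range of untreated mice at 5wk (173 ± 50.7 CPM, SD, n = 5). It was 239, 102, 152, 180.2 and 192 CPM in untreated mice at 5wk, 229 and 249.6 CPM in uncured and 147, 181 and 169 CPM in cured mice. Cured mice lay below both uncured mice. The mean was 178 ± 42.1 CPM in anti-PD1 (SD, n = 5), 192 ± 57.6 CPM in anti-CTLA4 (SD, n = 4), 245 ± 28.5 CPM in untreated 3wk and 309 ± 89.7 CPM in dual ICI 3wk mice (SD, n = 5 each), and neighbours in the order of means overlapped. Dual ICI 3wk replicate 5 held the highest value, 459 CPM.

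Csf2ra, the alpha chain that gives the GM-CSF receptor its specificity, was 48.9, 22.2, 26.4, 26.7 and 31.8 CPM in untreated mice at 5wk. It was 55.7 and 52.5 CPM in uncured and 44.0, 41.6 and 43.8 CPM in cured mice. Both uncured mice thus lay above all untreated mice at 5wk. The cured mice lay below the highest of those untreated mice and above the rest. The mean was 35.6 ± 9.48 CPM in anti-PD1 (SD, n = 5), 43.4 ± 8.26 CPM in anti-CTLA4 (SD, n = 4), 51.9 ± 13.2 CPM in untreated 3wk and 66.4 ± 22.8 CPM in dual ICI 3wk mice (SD, n = 5 each). The order of groups was not the same for the alpha and the beta chain, and the difference between the chains was not tested.

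The first comparison asked what dual ICI changed early, at 3wk, while tumors were still present. None of the 5 tested members was called by edgeR, where 0.574% of all genes tested were. The log2 fold changes of dual ICI over untreated were 0.34 for Csf1r (SE 0.19, adjusted p = 0.581), 0.35 for Csf2ra (SE 0.25, adjusted p = 0.691) and 0.20 for Csf2rb (SE 0.15, adjusted p = 0.725). Csf3r was at 0.24 (SE 0.36, adjusted p = 0.902) and Csf1 at -0.04 (SE 0.19, adjusted p = 0.980). The members' median was 0.24 on the log2 scale, beside 0.02 for all genes tested, and DESeq2 also called 0 of them. All 9 macrophage markers had a higher mean under dual ICI, and their sum, 1098 to 1897 CPM, lay above the 943 to 1059 CPM of untreated mice. The part of the macrophage markers in the Csf1r values was not tested beyond the ratio given below.

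The second comparison set untreated mice at 5wk against untreated mice at 3wk. None of the 5 was called, where 10.8% of all genes tested were. The lowest adjusted p belonged to Csf2ra, at a log2 fold change of -0.74 (SE 0.22, adjusted p = 0.0542), followed by Csf1 at -0.42 (SE 0.15, adjusted p = 0.0999) and Csf1r at -0.51 (SE 0.20, adjusted p = 0.116). Csf2rb was at -0.14 and Csf3r at 0.07. Csf2ra was called by DESeq2 (adjusted p = 0.0173), and in edgeR without untreated 5wk replicate 1 (adjusted p = 0.0200) or replicate 2 (adjusted p = 0.0460). It was not called without any other single mouse. The fibroblast marker sum was 5948 to 10579 CPM at 5wk against 12332 to 20052 CPM at 3wk, and its part in these values was not tested. The library identifiers of the mice at 3wk and at 5wk lie in separate ranges of numbers. What these ranges mark is not given in the sources used here, and it cannot be told apart from day.

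Monotherapy was compared with untreated mice at 5wk, which are the same 5 mice in each comparison at that day. For anti-PD1, 0% of all genes tested were called by edgeR, 205 genes had an unadjusted p under 0.05, and DESeq2 called 0. The members' log2 fold changes lay between -0.08 for Csf2rb and 0.19 for Csf2ra. Without anti-PD1 replicate 5, Csf2rb was at 0.07 and Csf3r at 0.20, against -0.08 and -0.04 with it, and neither was called. For anti-CTLA4, again 0% were called by edgeR, 128 genes had an unadjusted p under 0.05 and DESeq2 called 0. All 5 members had a log2 fold change above 0, from 0.14 for Csf1r to 0.46 for Csf2ra (SE 0.22, unadjusted p = 0.0641), where 45% of all genes tested were above 0.

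The uncured mice were compared with untreated mice to see what differed in tumors that grew under dual ICI. Of all genes tested, 0% were called by edgeR, 787 had an unadjusted p under 0.05, and DESeq2 called 17, none of them a member. The 5 members' log2 fold changes were all above 0, where 48.8% of all genes tested were. They were 0.85 for Csf3r (SE 0.39), 0.79 for Csf2ra (SE 0.28), 0.48 for Csf2rb (SE 0.18), 0.46 for Csf1r (SE 0.30) and 0.27 for Csf1 (SE 0.18), each at an adjusted p of 0.734. Csf2ra and Csf2rb did not overlap between the groups and were higher in both uncured mice, as were 9.19% of all genes tested. When all 5 dual ICI mice at 5wk were taken as 1 group, Csf2rb was at -0.14 and Csf3r at -0.28, so their direction rested on the split by outcome.

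The cured mice were then compared with the same untreated mice. Csf3r and Csf2rb were lower and the other members were not called. Csf3r was lower by a log2 fold change of -2.45 (SE 0.39, adjusted p = 0.00125), which is 4.64 ± 1.02 CPM in cured (SD, n = 3) against 25.5 ± 11.5 CPM in untreated mice (SD, n = 5). Csf2rb was lower by -0.77 (SE 0.14, adjusted p = 0.00276), or 28.4 ± 2.10 CPM against 48.6 ± 6.48 CPM. Both did not overlap between the groups, as 26.4% of all genes tested were lower without overlap. These were 2 of 5 tested members lower, where 26.7% of all genes tested were called lower and 44.7% were called in either direction, so 2 of 5 is not read as particular to the members.

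Csf1 was at 0.38 (SE 0.16, adjusted p = 0.0734), Csf2ra at 0.48 (SE 0.23, adjusted p = 0.110) and Csf1r at -0.05 (SE 0.25, adjusted p = 0.883) in cured against untreated mice. Without untreated 5wk replicate 1, Csf2ra was called higher in cured mice (0.69, adjusted p = 0.00895). The scaling also moved these values. TMM factors were 0.693 to 0.723 in cured and 0.793 to 1.20 in untreated 5wk mice, and on library totals, an alternative chosen after seeing the data, the median of all genes was at -0.64 in place of -0.05. On that scale Csf1 was at -0.22 and Csf2ra at -0.15, the other direction, while Csf3r was at -3.11 (SE 0.52, adjusted p = 0.0013) and Csf2rb at -1.37 (SE 0.26, adjusted p = 0.0021). Relative to the median of all genes on that scale, Csf1 and Csf2ra stayed above it and Csf3r and Csf2rb below it. With the skeletal muscle genes left out of the scaling, Csf3r was at -2.45 and Csf2rb at -0.77.

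Marker levels moved with these receptors. The sum of the 9 neutrophil markers in the table was 29.5 to 38.5 CPM in cured against 39.2 to 115 CPM in untreated mice, with 8 of 9 lower in the mean and Ngp at 0 in every cured mouse. All 20 muscle markers had a higher mean in cured mice and all 16 gastric epithelium markers a lower one, with Gkn1, Gkn2, Tff1 and Muc5ac at 0 in each cured mouse. The macrophage sum was 637 to 738 CPM in cured mice, inside the 470 to 1143 CPM of untreated mice. Untreated 5wk replicate 2, whose muscle share was 22.5%, had 12.2 CPM of Csf3r and 40.2 CPM of Csf2rb. Both values were above each cured mouse and the lowest of the untreated 5wk mice. Its gastric epithelium sum was 1212 CPM, against 24.4 to 115 CPM in cured mice. The part of tissue makeup in the difference was not tested.

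The direct comparison of outcomes set the 2 uncured against the 3 cured mice, which also served in the comparisons above. Csf3r was higher in uncured mice by 3.29 on the log2 scale (SE 0.20, adjusted p = 1.82e-06), Csf2rb by 1.25 (SE 0.11, adjusted p = 1.87e-05), Csf1r by 0.52 (SE 0.12, adjusted p = 0.00415) and Csf2ra by 0.31 (SE 0.09, adjusted p = 0.0118). Csf1 was at -0.10 (SE 0.15, adjusted p = 0.553). Thus all 4 receptor genes were called higher, and none overlapped between outcomes. Of all genes tested, 70% were called, 36.9% of them higher in uncured mice as a share of all tested, and 43.3% were higher without overlap. The calls of Csf2ra and Csf1r were lost when all 29 libraries shared 1 estimate of the spread (adjusted p = 0.405 and 0.139), and that of Csf2ra was lost without uncured replicate 1 (adjusted p = 0.0762) or cured replicate 4 (adjusted p = 0.0539). On library totals Csf1 was called higher as well, at 0.68. The macrophage and neutrophil marker sums were also higher in uncured than in cured mice without overlap (ratios of means 1.77 and 3.34). The skeletal muscle sum was lower without overlap (0.172), while the eosinophil and mast cell sums overlapped. The part of tissue makeup in these calls was not tested.

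**Figure D2:**
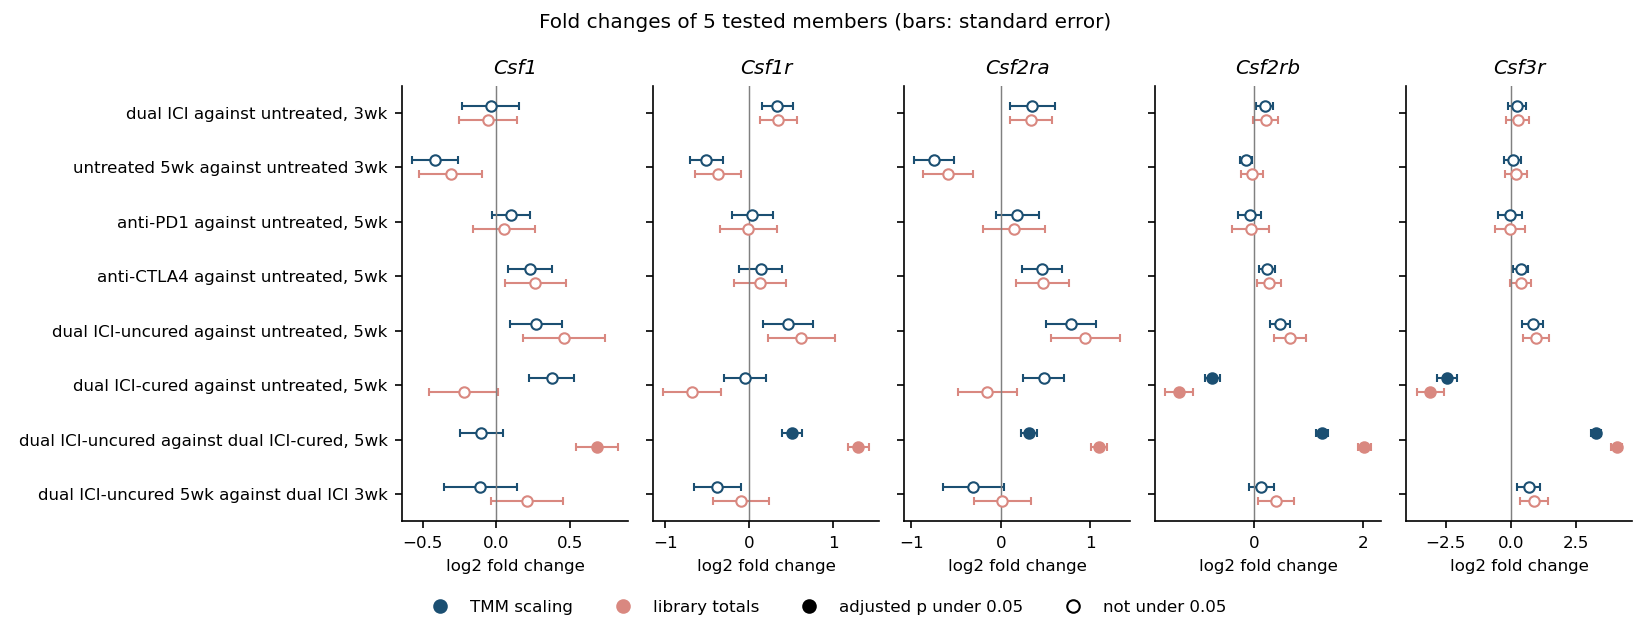
Log2 fold change of the 5 tested members in 8 comparisons, with the standard error as bars, on TMM-scaled sizes and on library totals. Filled points are called. Csf3r is the farthest from 0 in both comparisons with the cured mice, at -2.45 and 3.29 on TMM-scaled sizes, while Csf1 and Csf2ra change side with the scaling against untreated mice.

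Late tumors under dual ICI were also set against early ones (uncured at 5wk against dual ICI at 3wk). None of the 5 members was called, where 5.31% of all genes tested were, and day again cannot be told apart from the range of library identifiers. Csf3r had the largest of the members' log2 fold changes, 0.69 (SE 0.43, adjusted p = 0.324). The test of whether the dual ICI difference itself differed between days called 0% of all genes by edgeR, with 1050 at an unadjusted p under 0.05 and 1 gene called by DESeq2. Among the members tested there, Csf3r was at 0.63 (SE 0.60, adjusted p = 0.766) and Csf2ra at 0.44 (SE 0.41, adjusted p = 0.766).

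The level of a receptor was also set against the markers of its main cell type. The log2 ratio of Csf3r to the neutrophil marker sum was -2.92 ± 0.29 in cured (SD, n = 3) against -1.89 ± 0.39 in untreated mice at 5wk (SD, n = 5). This is a difference of -1.02 (p = 0.0357 in an exact permutation test, two-sided, which 3 against 5 mice cannot go below, and 0.0714 after adjustment over 8 ratio tests). With the mean of the markers' log2 CPM in place of their sum, the difference was 0.58, the other direction, so no direction can be given. The log2 ratio of Csf1r to the macrophage sum was -2.34 ± 0.19 in untreated mice at 5wk and -2.02 ± 0.12 at 3wk (SD, n = 5 each), a difference of -0.32 (exact permutation p = 0.00794, 0.0635 after adjustment). At 3wk the Csf1r ratio of dual ICI over untreated differed by -0.21 (exact permutation p = 0.0794, 0.127 after adjustment). The Csf1r ratio was higher in cured than in untreated mice by 0.31 (exact permutation p = 0.0357, 0.0714 after adjustment). None of the 8 ratio tests passed after adjustment, and both tests of uncured against untreated mice could not, since 2 against 5 mice cannot go below an exact permutation p of 0.0952. With 5 against 5 mice the exact permutation p cannot go below 0.00794. The Csf1r test of 5wk against 3wk was at that limit, and 1 test alone at it stays at 0.0635 after adjustment. Not passing is therefore not read as no difference.

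**Figure D3:**
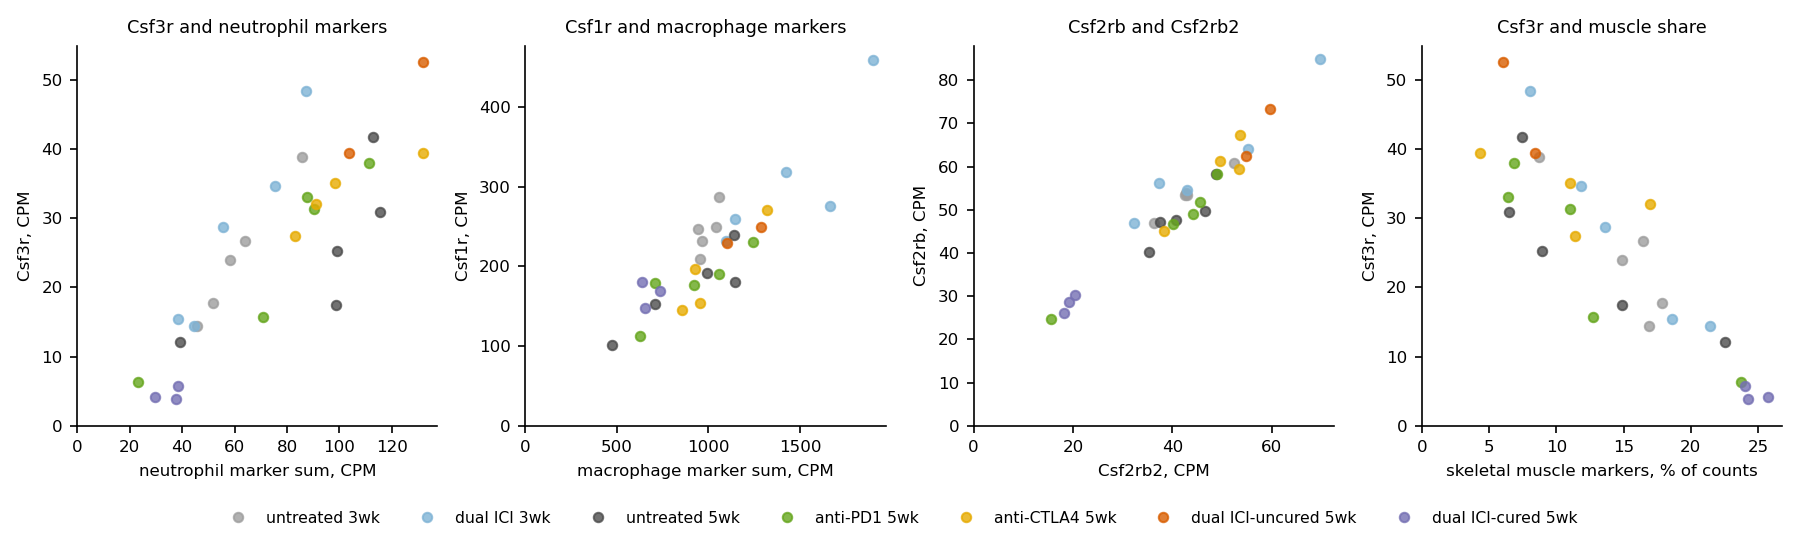
Levels by mouse, all axes linear and starting at 0. From the left, the panels plot Csf3r (CPM) against the neutrophil marker sum (CPM), Csf1r (CPM) against the macrophage marker sum (CPM), Csf2rb (CPM) against Csf2rb2 (CPM), and Csf3r (CPM) against the skeletal muscle share of counts (%). The 3 cured mice and anti-PD1 replicate 5 hold the lowest Csf3r, at 3.89 to 6.34 CPM, and the highest muscle shares, at 23.7% to 25.7%.

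Csf2rb and its near-copy moved together. Csf2rb2 was 35.3 to 48.8 CPM in untreated 5wk, 54.9 to 59.6 CPM in uncured and 18.1 to 20.4 CPM in cured mice. It was called lower in cured than in untreated mice (log2 fold change -1.11, SE 0.15, edgeR adjusted p = 0.000495). Csf2rb made up 51.6% to 61.2% of the counts of the pair over the 29 libraries, and 59.1% to 59.8% in the cured mice. Pearson's r between them over the 29 libraries was 0.973, the highest of any gene with Csf2rb, which shared reads could also raise.

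Other genes with patterns like the members' were found by Pearson's r of log2 CPM over the same 29 libraries, which share depth and tissue makeup. Csf3r was most like Gsap (r = 0.967), Eml4 and Tnfrsf11a, but none of these 3 was among its first 3 once the cured mice were left out. Csf1r was most like Unc93b1 (r = 0.954), Fgd2 and Pld4, and all 3 stayed without the cured mice. Csf2ra was most like Rgs14 (r = 0.910), Nrros and 4632428N05Rik, and Csf1 most like Emilin2 (r = 0.784), Cd248 and Tpst1. Without the cured mice, 2 of those 3 stayed for Csf2ra and 1 of 3, Emilin2, for Csf1. Between members, the pairs with the highest r were Csf2rb with Csf3r (0.873) and Csf1r with Csf2ra (0.837). Without the cured mice their order turned, to 0.774 for Csf2rb with Csf3r and 0.867 for Csf1r with Csf2ra. In counts as sparse as those of Csf2 and Csf3, likeness was not read.

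Genes around the family were described from 4 lists. Of the 6 inducers of colony stimulating factors, 4 were tested, and all 4 were called lower in cured than in untreated mice, where 26.7% of all genes tested were called lower. Il1b, a cytokine that induces G-CSF and GM-CSF, was 3.70 to 9.34 CPM in untreated and 0.155 to 0.585 CPM in cured mice, a log2 fold change of -4.24 (SE 0.48, adjusted p = 0.000218). Tnf, with the same role, was 5.72 to 8.83 CPM against 0.295 to 0.721 CPM, a change of -3.87 (SE 0.33, adjusted p = 0.000128). Il33, an alarmin of stromal cells, was lower by -1.31 (SE 0.21, adjusted p = 0.0011). Il1a was 0.447 to 1.79 CPM in untreated mice and held 0 to 2 counts in each cured mouse. With Il1a at the floor of 3 counts per library, the list's median log2 fold change was -3.36, beside -0.05 for all genes tested. Il17a and Il17f had too few counts to be tested.

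The same 4 inducers were called higher in uncured than in cured mice, where 36.9% of all genes tested were called higher and 70% called, and none was called in uncured against untreated mice. Their 4 log2 fold changes at 3wk, dual ICI over untreated, were above 0 but not called, where Il1a was at 1.44 and Il33 at 0.12.

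Among related cytokines and receptors, 4 of 6 tested were called lower in cured than in untreated mice and 0 higher, beside 26.7% of all genes tested called lower. These were Csf2rb2, Il34 (-0.59, adjusted p = 0.0169), Il5ra (-2.02, adjusted p = 0.0240), the IL-5 receptor alpha chain that pairs with the common beta chain, and Flt3 (-1.34, adjusted p = 0.00982), a growth factor receptor of dendritic cell precursors. The calls of Il34 and Il5ra were lost when 1 cured mouse was left out (without cured replicate 4, adjusted p = 0.0819 for Il34 and 0.0820 for Il5ra, and also without replicate 3 for Il34 and replicate 2 for Il5ra). The list's median was -0.85. Dendritic cell markers summed to 15.4 to 20.3 CPM in cured against 23.3 to 48.4 CPM in untreated mice. Only 3 of these 6 markers were lower in the mean, and 3 were higher. The 4 eosinophil markers, of cells that carry the IL-5 receptor, went the other way, at 12.0 to 21.7 CPM in cured against 3.37 to 9.17 CPM in untreated mice, with 3 of 4 higher in the mean. The part of either cell type was not tested.

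Of 17 signal transducers and feedback genes, 4 were called lower and 1 higher in cured against untreated mice, a share near the 26.7% called lower among all genes tested, so nothing is read from the count. Socs3, a feedback inhibitor of the G-CSF receptor, was lower by -1.39 (SE 0.21, adjusted p = 0.00089), at 35.9 to 52.4 CPM against 88.8 to 139 CPM. Socs1 (-0.80), the phosphatase gene Ptpn6 (-0.98) and the kinase gene Pim1 (-0.48) were called lower too, and each of these 3 calls was lost when 1 cured mouse was left out (adjusted p = 0.0633 for Socs1 and 0.0777 for Pim1 without cured replicate 2, and 0.0570 for Ptpn6 without replicate 4). Jak1, a kinase of many cytokine receptors, was called higher by 0.51 (adjusted p = 0.0423), but on library totals it was at -0.07 (adjusted p = 0.802), and the call was lost whichever of the 3 cured mice was left out.

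Of 8 myeloid transcription factors, Irf8, which directs monocyte and dendritic cell fate, was called lower in cured against untreated mice (-1.12, SE 0.20, adjusted p = 0.00221). Irf4 was the only one called higher in cured mice, at 23.6 to 27.3 CPM against 5.93 to 10.1 CPM (1.77, SE 0.19, adjusted p = 0.000182). The list's median was 0.02, beside -0.05 for all genes tested, of which 44.7% were called. The lists also held calls in comparisons without cured mice. Of the myeloid transcription factors, 1 was called higher under dual ICI at 3wk, where 0.574% of all genes tested were called. In uncured 5wk against dual ICI 3wk, 1 was called lower, where 5.31% were called. In untreated 5wk against 3wk, 1 related gene and 1 inducer were called higher and 2 transducers lower, where 10.8% were called.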

How the data were processed

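Each library was 1 mouse, grouped by the labels' treatment and day, with outcome from the matched mouse numbers. The anti-PD1 group was kept whole, since the cured mouse that the study places in it is not numbered. Its replicate 5 held 74.0 CPM of gastric epithelium markers, against 3115 to 4007 CPM in the rest of the group. Whether replicate 5 is the cured mouse is not given in the sources used here. The deposited table holds raw counts by gene symbol, without normalization. The authors aligned reads to mm10. Their processing notes name STAR 2.7.0f and featureCounts 1.6.4, while the study's methods name another release and counter. The annotation and strand setting are not given in the sources used here, and 0 columns were left unmapped.

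From these counts, edgeR 4.0.16 in R 4.3.3 was run on the groups compared only (TMM, filterByExpr, glmQLFit, glmQLFTest, two-sided, Benjamini-Hochberg adjustment over all genes). The SE of each edgeR log2 fold change was derived as its absolute value over the square root of the test's F statistic. CPM for levels used TMM factors over all 29 libraries, and ratios a prior count of 2. Ratios to markers were tested by exact permutation over mice (two-sided, Python with numpy), adjusted over 8 tests with scipy 1.17.1. DESeq2 1.42.0, other scalings, other filters, a fit of all libraries and leaving out each mouse were the alternatives. The edgeR step was tested on simulated data with 200 genes changed 4-fold, all others equal and the same spread set for every gene. For cured against untreated mice it recovered 98% of them among 15715 genes, with 4 false calls. For uncured against cured mice it recovered 83.5% among 15688 genes, with 13 false calls. For uncured against untreated mice it recovered 95.5%, with 11 false calls. The real mice differ from these settings, so the shares check the code and do not give its power here. No pair of replicates was close enough to be 1 library (chi-square per gene at least 13.2). Genes named are the members, the genes of 4 hand-written lists and, per member, the 3 with the highest r. Ly6g, in the neutrophil list, has no row. The members and lists were chosen with earlier results of these data known. The p-values weigh each difference against the spread between these mice and are no independent support for that choice.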

Additional observations from a re-analysis of the deposited data

Results flagged for a closer look

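Of 45 groups of 4 or 5 mice tested for a value far from the others, 1 was set apart, where chance alone sets apart about 1 in 20. The log2 ratio of Csf1r to the macrophage marker sum was -1.98 in anti-PD1 replicate 5, the highest of its group, against a median of -2.45 in the other 4 mice. In the cured mice that ratio ran from -2.15 to -1.81. The same library held 23.7% of its counts in skeletal muscle genes and 74.0 CPM of gastric epithelium markers. The study places 1 cured mouse in the anti-PD1 group without a number. The part of tissue makeup or outcome in that ratio was not tested.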

How the results depend on the processing

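Csf3r and Csf2rb kept their direction and their call in both comparisons with the cured mice under every alternative run, including each mouse left out, where Csf3r ranged from -2.64 to -2.21 and Csf2rb from -0.82 to -0.70 against untreated mice. The labels' replicate numbers were not taken to pair the mice, since no source says that a number marks a shared litter or day, and no comparison with 3 or more pairs had every same-numbered pair at a correlation over 0.1. For uncured against cured mice no paired analysis was possible because they share no number. With the replicate block, genes called were 209 in place of 89 for dual ICI at 3wk, 4016 in place of 7067 for cured against untreated mice and 3192 in place of 857 for uncured mice at 5wk against dual ICI mice at 3wk, where 1 member, Csf3r, was called (1.01, adjusted p = 0.0103). The block also called Csf2ra higher in cured than in untreated mice (0.78, adjusted p = 0.0290) and put Csf1r there at 0.23 and Csf1r in the test by day at -0.14.

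DESeq2 called 502 genes for dual ICI at 3wk, 3168 in place of 1687 for untreated 5wk against 3wk with 1 member (Csf2ra), 17 in place of 0 for uncured against untreated mice, 3069 in place of 857 for uncured 5wk against dual ICI 3wk and 1 in the test by day. A fit of all 29 libraries called 237 in place of those 857 genes, 1 member (Csf2ra) for untreated 5wk against 3wk, and 2 in place of 4 members for uncured against cured mice. On library totals, chosen after seeing the data, 15 genes were called for dual ICI at 3wk, and Csf1r was at -0.010 for anti-PD1, Csf1 at -0.22 and Csf2ra at -0.15 for cured against untreated mice, Csf1 at 0.68 for uncured against cured mice, and Csf1 at 0.21 and Csf2ra at 0.018 for uncured 5wk against dual ICI 3wk. The split of genes called higher and lower moved from 2848 and 4219 to 1187 and 7386 for cured against untreated mice, from 5831 and 5232 to 10127 and 2314 for uncured against cured mice, from 492 and 365 to 570 and 248 for uncured 5wk against dual ICI 3wk, and from 73 and 16 to 14 and 1 for dual ICI at 3wk. With all 5 dual ICI mice as 1 group, Csf2rb was at -0.14 and Csf3r at -0.28 against untreated mice. With the mean of marker log2 CPM, the ratio difference of Csf1r to macrophage markers was -0.00523 for uncured against untreated mice, and that of Csf3r to neutrophil markers -0.0069 for dual ICI at 3wk and 0.58 for cured against untreated mice. The cause of these shifts was not tested.

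Leaving out 1 mouse at a time, genes called ranged from 6 to 119 for dual ICI at 3wk, 654 to 4915 with 0 to 1 member for untreated 5wk against 3wk, 4491 to 9388 for cured against untreated mice, 0 to 4006 for uncured 5wk against dual ICI 3wk and 9668 to 10883 for uncured against cured mice. Called members ranged from 2 to 3 for cured against untreated mice and from 3 to 4 for uncured against cured mice, with Csf2ra lost. Log2 fold changes that changed sign were never called. They ranged for dual ICI at 3wk from -0.19 to 0.11 (Csf1) and -0.063 to 0.46 (Csf3r), for untreated 5wk against 3wk from -0.17 to 0.29 (Csf3r), for anti-PD1 from -0.10 to 0.18 (Csf1r), -0.17 to 0.071 (Csf2rb) and -0.24 to 0.21 (Csf3r), and for anti-CTLA4 from -0.077 to 0.28 (Csf1r). They ranged for cured against untreated mice from -0.18 to 0.086 (Csf1r), for uncured against cured mice from -0.25 to 0.0019 (Csf1), for uncured 5wk against dual ICI 3wk from -0.17 to 0.057 (Csf1), and in the test by day from -0.016 to 0.32 (Csf1r) and -0.99 to 0.20 (Csf2). The ratio difference of Csf1r to macrophage markers ranged from -0.055 to 0.077 for uncured against untreated mice. Depth limited Csf2 and Csf3, with at most 15 counts in a library.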
